A study of Mus musculus with 2 samples.

Results

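Zinc enters and leaves the cytosol through 2 families of carriers, and metallothioneins hold it in between. The 10 genes described here are the metallothioneins Mt1 and Mt2, the zinc-sensing transcription factor gene Mtf1, the importers Slc39a1, Slc39a8, Slc39a10 and Slc39a14 (ZIP1, ZIP8, ZIP10 and ZIP14), and the exporters Slc30a1, Slc30a4 and Slc30a7 (ZnT1, ZnT4 and ZnT7). They were taken by gene name from the 23609 genes of the deposited table, and all 10 were found. The group was chosen because Slc39a8 had one of the lowest P2Y4 KO/WT ratios in the table, so the ratio of Slc39a8 is a description of how it was picked and supports nothing by itself. The other members were chosen with the results of these libraries known.

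RNA came from pericardial adipose tissue (PAT) of wild type (WT) and P2Y4 KO mice on the C57BL/6J background, 24 h after the LAD, a main coronary artery of the left ventricle, was tied off to cause a myocardial infarction. The study used male and female mice aged 11 to 13 weeks. RNA of 3 WT mice made 1 library and RNA of 3 P2Y4 KO mice the other, and the sources used here do not state how the sexes were divided between the pools. Both pools held reads of the Y-linked genes, from 267 for Uty to 1219 for Eif2s3y in WT and from 232 for Uty to 994 for Ddx3y in P2Y4 KO PAT. Xist, the RNA of the inactive X chromosome in females, was near the limit of detection, with 7 and 2 reads, so that both pools read as mostly or wholly male. Both groups were infarcted, so no unligated PAT stands beside them, and the sources used here name no tissue-specific driver for the P2Y4 deletion. With 1 library per genotype there is no replicate, no difference has a check between mice, and no p-value is given.

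P2ry4, the deleted gene, is not listed in the table, and the genotype labels could not be checked with it. The values correspond to 15508820 reads in the WT pool and 14885825 reads in the KO pool. CPM stands for reads per 1000000 reads of a library, and each library is also called a pool. A ratio is the P2Y4 KO value over the WT value, and the range after it is its exact 95% Clopper-Pearson interval, which covers the counting of reads only. Of the 8 adipocyte markers 7 had at least 998 reads in each library, and Lep had 6 reads in the WT and 164 in the KO pool (summed CPM 2117 in the WT pool and 4043 in the KO pool). Markers of other cell types also differed between the pools. The 10 cardiomyocyte markers summed to 9.20 CPM in the WT pool and 587 CPM in the KO pool, and the 9 markers of the mesothelium, which lines the pericardial cavity, to 2246 and 660 CPM. None of these markers stood at 0 reads in the KO library. In the WT library no listed gene stands at 0 reads, so this cannot be asked there.

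As background, metallothioneins are small cysteine-rich proteins that bind zinc and copper and that many tissues make in response to metals, glucocorticoids and inflammation. MTF-1, the product of Mtf1, is activated by zinc and turns on Mt1, Mt2 and Slc30a1 through short DNA sequences called metal response elements, while in mouse cells it holds down Slc39a10. ZIP proteins (genes Slc39a) carry zinc into the cytosol from outside or from organelles, and ZnT proteins (genes Slc30a) carry it out. ZIP8 and ZIP14 also carry manganese, iron and cadmium.

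The promoter sequences of the metal-responsive genes and of the importers that differed most are shown because MTF-1 is known to read such elements. RefSeq windows on GRCm38.p6 were available for 9 of the 10 members, and each was searched from 250 bases before the annotated start to 30 bases from it, 280 bases in all. The core of the element was searched as TGCACNC or TGCGCNC on both strands, and overlapping matches on opposite strands would each be counted. Capitals mark the matches, and the sequences are written 5′ to 3′ in the direction of the gene. The windows are chr8:94172368-94172647 on the plus strand for Mt2, chr8:94178839-94179118 on the plus strand for Mt1, chr1:191906531-191906810 on the plus strand for Slc30a1, chr3:135825407-135825686 on the plus strand for Slc39a8 and chr1:46853589-46853868 on the minus strand for Slc39a10.
Mt2: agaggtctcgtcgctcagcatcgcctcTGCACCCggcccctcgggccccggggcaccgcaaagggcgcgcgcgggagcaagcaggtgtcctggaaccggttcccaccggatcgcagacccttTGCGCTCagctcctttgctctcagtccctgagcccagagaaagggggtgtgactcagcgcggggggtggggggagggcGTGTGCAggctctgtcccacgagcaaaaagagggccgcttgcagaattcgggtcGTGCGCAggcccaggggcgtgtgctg
Mt1: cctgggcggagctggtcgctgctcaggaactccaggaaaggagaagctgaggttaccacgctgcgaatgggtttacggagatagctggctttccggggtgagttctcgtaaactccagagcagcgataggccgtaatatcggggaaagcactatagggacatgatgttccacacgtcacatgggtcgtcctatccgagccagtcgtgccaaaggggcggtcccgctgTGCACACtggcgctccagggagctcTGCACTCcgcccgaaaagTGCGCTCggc
Slc30a1: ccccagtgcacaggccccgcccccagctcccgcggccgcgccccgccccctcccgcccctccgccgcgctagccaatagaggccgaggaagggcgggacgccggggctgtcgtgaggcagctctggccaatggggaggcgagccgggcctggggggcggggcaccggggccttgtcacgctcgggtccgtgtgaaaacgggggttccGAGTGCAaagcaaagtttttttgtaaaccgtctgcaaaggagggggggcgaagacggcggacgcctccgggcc
Slc39a8: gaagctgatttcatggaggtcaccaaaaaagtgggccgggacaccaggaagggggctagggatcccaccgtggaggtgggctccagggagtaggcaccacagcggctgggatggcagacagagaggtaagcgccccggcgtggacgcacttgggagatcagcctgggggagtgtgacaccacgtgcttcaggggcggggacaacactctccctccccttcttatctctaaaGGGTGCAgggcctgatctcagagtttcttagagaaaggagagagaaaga
Slc39a10: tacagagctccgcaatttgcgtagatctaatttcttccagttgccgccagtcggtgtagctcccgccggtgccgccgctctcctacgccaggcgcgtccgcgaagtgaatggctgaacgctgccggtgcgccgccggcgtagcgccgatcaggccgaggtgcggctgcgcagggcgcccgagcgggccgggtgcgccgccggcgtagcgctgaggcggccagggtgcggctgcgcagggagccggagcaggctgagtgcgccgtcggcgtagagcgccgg

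Mt2 held 4 matches and Mt1 3, against 0.405% of all 32851 mouse promoter windows with 4 or more and 1.73% with 3 or more. Slc30a4 also held 3 matches and Slc30a1 held 1. At least 1 match was found in 24.1% of all windows, so the single match of the Slc39a8 window, on the minus strand and ending 13 bases before the start, is of a kind that many genes share. Both starts of Slc39a10 and the windows of Slc39a1, Slc30a7 and Mtf1 held no match. The window of the other Slc39a8 start, chr3:135825029-135825308, also held none. It covers base 135825279, where the annotated gene begins, and the Slc39a8 window shown lies downstream of that base. A match is only a run of letters, and no measurement of MTF-1 binding belongs to these data. Since Mt1 and Mt2 are known targets through this element, their counts of matches only describe the windows. The Mt1 matches at bases 2 to 8 and 20 to 26 and the Mt2 match at 4 to 10 lie after the annotated start.

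Of the 10 genes, 2 were lower in P2Y4 KO PAT, none was higher and 8 lay between these bounds and within a factor of 1.3 of equality (59.9% of all genes were), when a gene is called higher at a ratio of at least 2 and lower at a ratio of at most 0.5. Both lower genes are importers, Slc39a8 and Slc39a10. A gene was considered where either library exceeded 0.5 CPM, which held for 18474 genes and all 10 members. Among the 18474 genes 4.4% were lower and 8.75% were higher. Since the group was picked on the same ratios, its count is not read against these shares. The median log2 ratio was -0.14 over the 10 members and 0.00 over all genes considered.

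**Figure D1:**
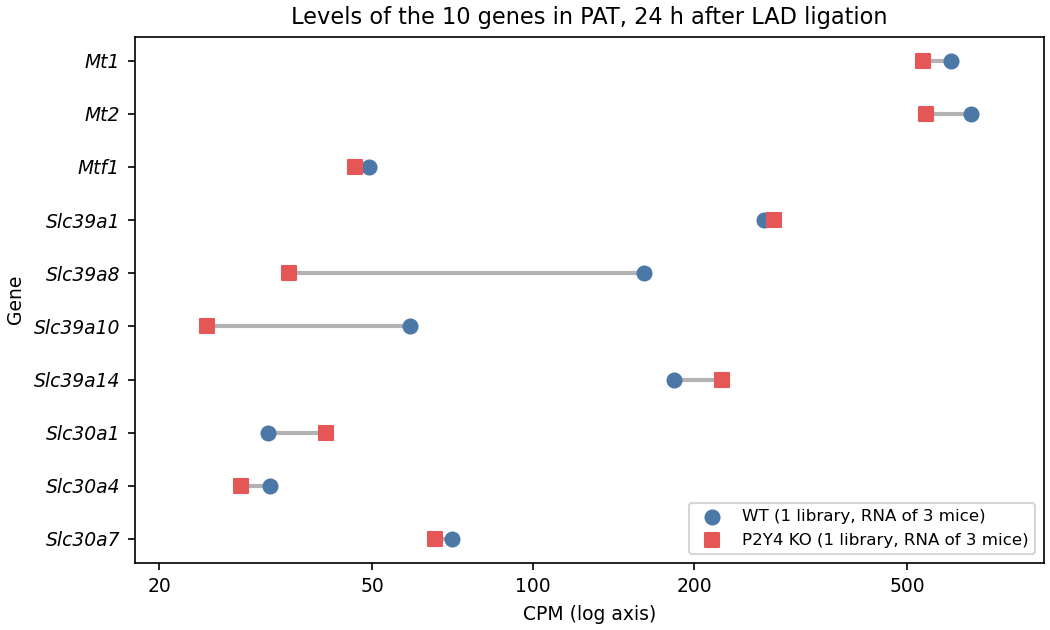
CPM of each gene (log axis) in the WT library (circles) and the P2Y4 KO library (squares), each made from the RNA of 3 mice, so that no error bar can be drawn. Slc39a8 moves from 161 to 35.0 CPM and Slc39a10 from 59.0 to 24.6 CPM, while the points of the other 8 genes lie close together.

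Slc39a8 encodes ZIP8, an importer of the plasma membrane and of lysosomes that is known as an NF-kB target in macrophages and as a manganese transporter. It had 2500 reads (161 CPM) in the WT library and 520 reads (35.0 CPM) in the P2Y4 KO library. The WT library was thus the high one, and the level was 4.61-fold lower in the KO pool, with a ratio of 0.217 (0.197 to 0.238). The gene (ENSMUSG00000053897) occupies bases 135825279 to 135888572 of chromosome 3, plus strand, in GRCm38.

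In the order of ratios Slc39a8 stood at place 96 from the lowest of 18474 genes. Just below it were the keratin gene Krt14 (0.215) and Crym (0.216), and just above it Tmem125 (0.220) and Tnfrsf19 (0.225). In the order of the upper end of the interval Slc39a8 was in place 8 of 14669 genes with a standard symbol. The genes on either side of it there were the immunoglobulin segment Ighv1-71, with 58 and 5 reads in WT and P2Y4 KO PAT, and Krt14, with 1394 and 288 reads.

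The 3 genes nearest to Slc39a8 in log2 CPM over the 2 libraries were Tinagl1, Has1 and Krt8, at distances of 0.08, 0.21 and 0.51. Tinagl1, which encodes a basement membrane protein, had 158 CPM in the WT pool and 36.7 CPM in the KO pool. Has1, a hyaluronan synthase gene, had 159 and 40.4 CPM, and the keratin gene Krt8 had 199 and 46.5 CPM. With only 2 points per gene this likeness is a description of level and ratio and nothing more. Krt8 is on the list of mesothelial markers. Of the 9 genes of that list 8 were lower (4.4% of all genes were), and the median log2 ratio was -1.99. The lower genes ran from Krt18 with a ratio of 0.230 to Muc16 with 0.474, and Wt1 was at 0.557. Mesothelin, Msln, had 8658 reads in the WT pool and 2095 reads in the KO pool. The level of Slc39a8 was 7.18 CPM per 100 CPM of the summed mesothelial markers in the WT pool and 5.30 in the KO pool, a change of 0.738. On the same scale the 9 markers themselves ran from 0.784 for Krt18 over 0.858 for Msln to 1.41 for Lrrn4, 1.61 for Muc16 and 1.90 for Wt1. The change of Slc39a8 lay below this range by its point value only. The counting intervals of the KO/WT ratios of Slc39a8 (0.197 to 0.238) and Krt18 (0.202 to 0.262) overlapped, so the 2 were not resolved from each other. The part of the mesothelial cells in the difference of Slc39a8 was not tested. In these bulk libraries fewer cells of a type and less RNA per cell cannot be told apart.

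Slc39a10, which encodes ZIP10, a plasma membrane importer known in B cells and other tissues, was the other gene to pass the threshold. It had 914 reads (59.0 CPM) in the WT pool and 365 reads (24.6 CPM) in the KO pool. Again the WT library was the high one, by 2.40-fold, and the ratio of 0.416 (0.367 to 0.470) lay wholly below 0.5. The gene (ENSMUSG00000025986) occupies bases 46807544 to 46892852 of chromosome 1, minus strand. The B cell receptor genes Cd79b and Cd79a had ratios of 0.834 and 1.16. Per 100 CPM of mesothelial markers the level of Slc39a10 was 2.62 CPM in the WT pool and 3.72 CPM in the KO pool, a change of 1.42. This change is only the ratio of the gene over that of the marker sum. Any gene with a ratio from 0.230 to 0.557 falls within the range of the markers on this scale. The part of the mesothelial cells in the difference of Slc39a10 was not tested.

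**Figure D2:**
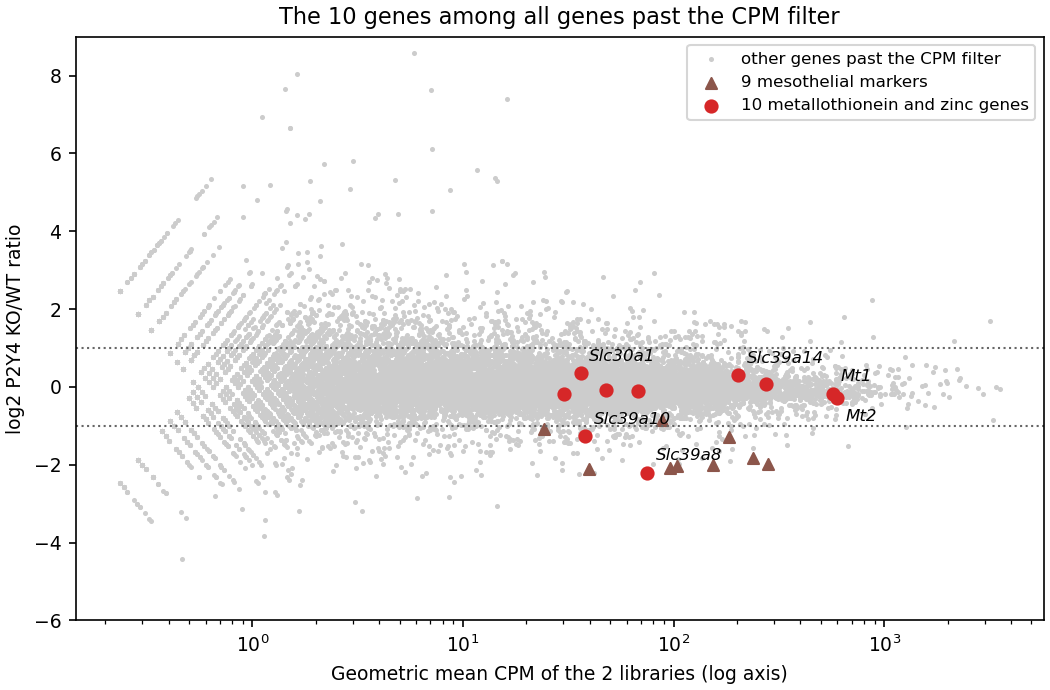
log2 P2Y4 KO/WT ratio against the geometric mean CPM of the libraries (log axis) for the genes past the CPM filter, without the 6 that had 0 reads in the KO pool; dotted lines mark ratios of 2 and 0.5. Slc39a8 and Slc39a10 (filled circles) lie under the lower line with 8 of the 9 mesothelial markers (triangles), and the other 8 genes lie between the lines.

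The other importers of the group had ratios near or above 1. Slc39a14 encodes ZIP14, which takes up zinc, iron and manganese and is known in liver and adipose tissue as a gene induced by inflammation. It had 2845 reads (183 CPM) in the WT pool and 3352 reads (225 CPM) in the KO pool, so that the P2Y4 KO library was the high one, with a ratio of 1.23 (1.17 to 1.29). Slc39a1, the widely expressed ZIP1, had 4180 reads (270 CPM) and 4189 reads (281 CPM), a ratio of 1.04 (1.00006 to 1.09).

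The relation between Slc39a8 and Slc39a14, close relatives that share their metals, is given as a description, since it follows from the ratio on which the group was picked. In WT PAT the level of Slc39a8 per kb of exon was 1.21 times that of Slc39a14, and in P2Y4 KO PAT it was 0.214 times.

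Over the whole ZIP family, 13 of 14 genes were listed and passed the filter. Of these, 2 were lower (Slc39a8 and Slc39a10) and none was higher, beside 4.4% and 8.75% of all genes, with a median log2 ratio of -0.16. Among the 9 genes outside the group, the ratios ran from 0.688 (0.623 to 0.760) for Slc39a6 to 1.63 (0.497 to 5.34) for Slc39a2, which had only 6 reads in the WT pool and 9 reads in the KO pool. Slc39a7, which releases zinc from the endoplasmic reticulum, had 4582 and 3597 reads and a ratio of 0.818 (0.783 to 0.855). Slc39a3 (0.879), Slc39a4 (0.781), Slc39a5 (1.40), Slc39a9 (0.896), Slc39a11 (1.04) and Slc39a13 (1.02) made up the rest.

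Summed over the family, ZIP transcripts stood at 1237 CPM in the WT pool and 1044 CPM in the KO pool, a ratio of 0.844 (0.826 to 0.862). Slc39a8 made up 13.03% of that sum in the WT pool and 3.35% in the KO pool. Without Slc39a8 the sums were 1076 and 1009 CPM, a ratio of 0.938 (0.917 to 0.959), and without Slc39a10 as well the ratio was 0.968 (0.946 to 0.9901). These sums depended on the scaling: with both libraries scaled to the median of 86 ribosomal protein genes the ratios were 0.968 for the family, 1.08 without Slc39a8 and 1.11 without both.

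**Figure D3:**
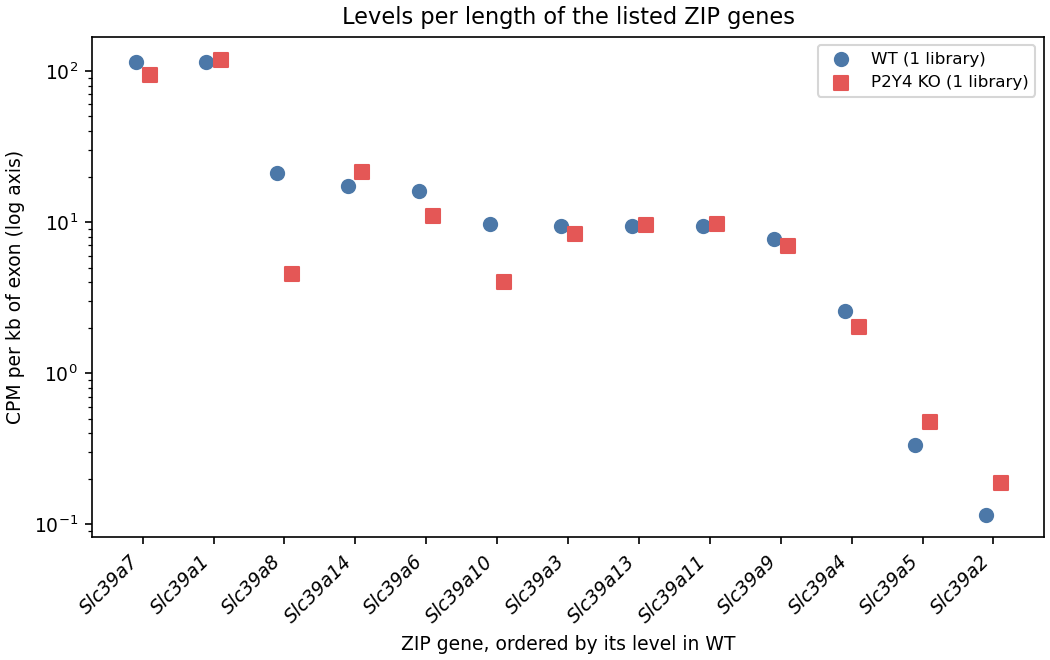
CPM per kb of exon (log axis) of the 13 listed ZIP genes, ordered by their level in WT, in the WT library (circles) and the P2Y4 KO library (squares). Slc39a8 lies at 21.0 in the WT pool and 4.56 in the KO pool and so moves from the third place to below Slc39a9, and Slc39a7 and Slc39a1 are the most abundant ZIP genes in both libraries.

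Among the exporters no member passed the threshold, and Slc30a1 had the highest ratio. Slc30a1 encodes ZnT1, the exporter of the plasma membrane, which MTF-1 induces when zinc is plentiful. It had 496 reads (32.0 CPM) in WT and 609 reads (41.0 CPM) in the KO pool, with a ratio of 1.28 (1.13 to 1.44). Slc30a4, an exporter into endosomal vesicles, had 499 reads (32.2 CPM) and 424 reads (28.5 CPM), and Slc30a7, which loads the early secretory pathway, 1094 reads (70.6 CPM) and 976 reads (65.6 CPM). Their ratios of 0.885 (0.776 to 1.01) and 0.930 (0.852 to 1.01) have intervals that include 1, so that no difference could be resolved at this depth. In the order of ratios over the 18474 genes, Slc30a1 had 75.8% of the genes below it and Slc30a4 31.3%.

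Of the 10 ZnT genes 7 were listed, and 1 was lower (4.4% of all genes were). This was Slc30a2, with 36 reads in the WT pool and 16 reads in the KO pool (ratio 0.468, 0.240 to 0.856), which passed the threshold by its ratio but not by its whole interval. Slc30a5 (0.9496), Slc30a6 (0.842) and Slc30a9 (0.963), whose products act at internal membranes, lay within the bounds. The summed ZnT level was 303 CPM in the WT pool and 293 CPM in the KO pool, a ratio of 0.965 (0.925 to 1.01). With the ribosomal scaling this ratio was 1.11. Slc30a3, Slc30a8 and Slc30a10, and Slc39a12 among the importers, were not listed and are not analysed here.

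**Figure D4:**
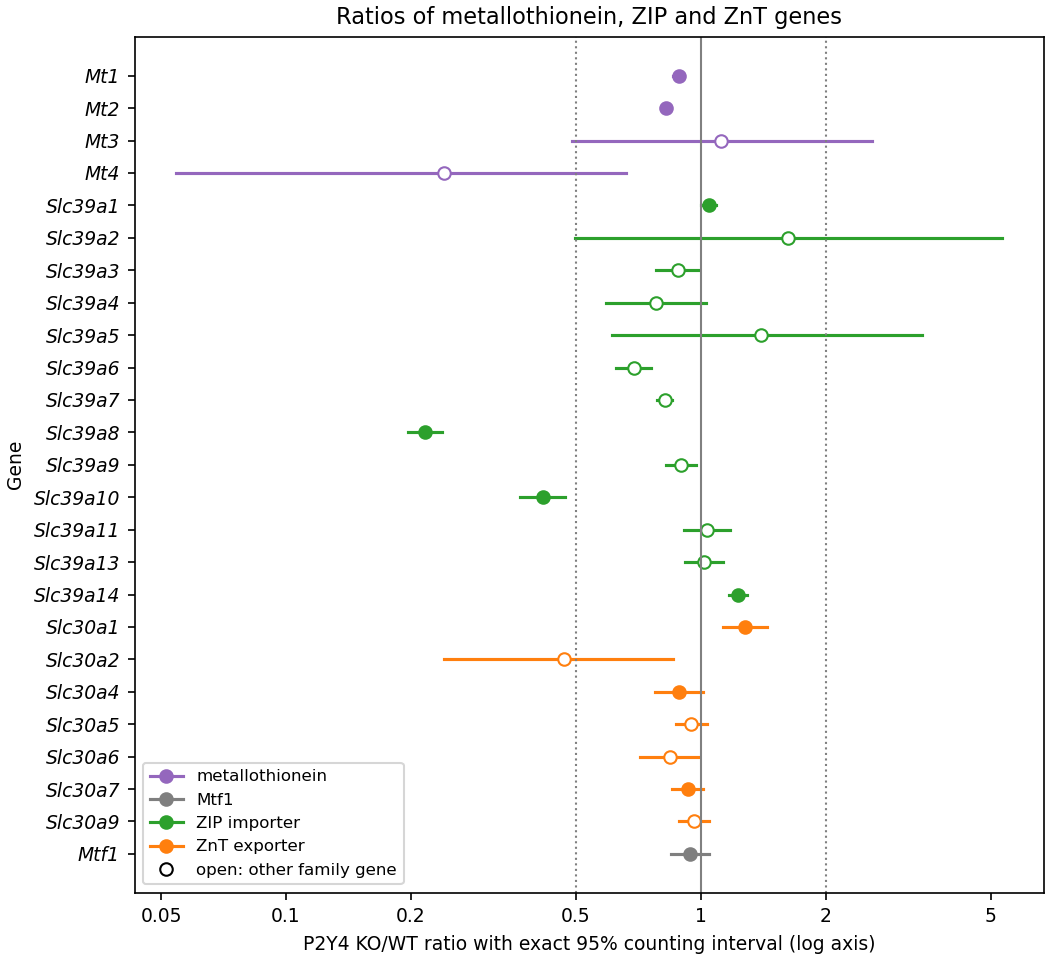
P2Y4 KO/WT ratio (log axis) of the listed metallothionein, ZIP and ZnT genes and of Mtf1, with exact 95% intervals for counting error only; filled points are the 10 genes of the group, and dotted lines mark ratios of 0.5 and 2. The intervals of Slc39a8 and Slc39a10 lie wholly under 0.5, and those of Mt4, Slc39a2, Slc39a5 and Mt3 are wide because each has fewer than 20 reads in both libraries.

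Mt1 and Mt2 were the most abundant members in both libraries, and neither passed the threshold. Mt1 had 9366 reads (604 CPM) in the WT pool and 7961 reads (535 CPM) in the KO pool, and Mt2 had 10223 reads (659 CPM) and 8081 reads (543 CPM). For both genes the WT library was the higher one, with ratios of 0.886 (0.859 to 0.913) for Mt1 and 0.824 (0.7998 to 0.848) for Mt2. In the order of abundance Mt2 held place 140 in the WT pool and 192 in the KO pool, and Mt1 places 164 and 201. Together they made up 1263 CPM in the WT pool and 1078 CPM in the KO pool, a ratio of 0.853 (0.836 to 0.871). These ratios depended on the scaling: with the ribosomal scaling they were 1.02 for Mt1, 0.944 for Mt2 and 0.978 for the sum.

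Mt2 and Mt1 are neighbours on the plus strand of chromosome 8, from 94172664 to 94173568 and from 94179082 to 94180327, with 5513 bases between them. The level of Mt1 was 0.916 times that of Mt2 in the WT pool and 0.985 times in the KO pool in CPM, or 0.432 and 0.465 times per kb of exon. Exon length merges the exons of all annotated transcripts. For Mt1 it is 1.246 kb, the whole span of the gene with its introns, and for Mt2 it is 0.588 kb. The level of Mt1 per kb thus depends on the annotation and may be too low beside that of Mt2. The antisense gene Gm45774 runs on the other strand over 73.5% of the exon bases of Mt2. It was listed with 9776 reads in the WT pool and 7740 reads in the KO pool, nearly as many as Mt2, and its ratio of 0.825 (0.801 to 0.850) was close to that of Mt2. Since the strand setting of the counting is not given in the sources used here, reads of Mt2 and Gm45774 cannot be told apart, and the level of Mt2 is less certain than that of Mt1, which no annotated gene overlaps. Mtf1, Slc30a1, Slc30a4 and Slc30a7 are also overlapped on the other strand, by listed genes with 35 to 516 reads, the highest being 1110065P20Rik over Mtf1. Slc39a8 is overlapped on the other strand by 4933401H06Rik, which is not listed. On its own strand Slc39a8 is overlapped by Gm43429 (36 reads in WT, 12 in KO) and Gm43428 (5 and 4). Slc39a10 is overlapped on its own strand by Gm28151 (8 and 3 reads) and by Gm37393, which is not listed.

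The remaining metallothioneins were near the limit of detection. Mt3, known from brain, had 13 reads in the WT pool and 14 reads in the KO pool. Mt4, known from stratified epithelium, had 19 reads and 4 reads, a ratio of 0.240 (0.0543 to 0.660). Markers of keratinised epithelium summed to 139 CPM in the WT pool and 39.4 CPM in the KO pool, of which Krt14 alone made up 89.9 and 19.35 CPM. Of 6 past the CPM filter 4 were lower (4.4% of all genes were), among them Krt14 (0.215) and Evpl (0.140). Dsp (1.07) lay within the bounds and Trp63 (2.02) was higher. Krt5 had only 5 reads and 2 reads and Krt15 was not listed, so the list does not show that such an epithelium was present. The part of these markers in the value of Mt4 was not tested.

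Mtf1 itself had 765 reads (49.4 CPM) in WT and 692 reads (46.5 CPM) in the KO pool, with a ratio of 0.942 (0.849 to 1.05), so that no difference could be resolved at this depth. Of 8 genes in a list of Mtf1 and genes described as MTF-1 targets, only Slc39a10 was lower and none was higher. Over all genes 4.4% were lower and 8.75% higher. The list of MTF-1 targets leaves out Mt1 and Mt2. It also holds both Slc39a10, which MTF-1 holds down, and Slc30a1, which MTF-1 turns on, so its count has no common direction. The others were Gclc (0.859), which makes glutathione, the iron exporter gene Slc40a1 (1.08), Ndrg1 (1.15), Selenoh (1.21), Csrp1 (1.24) and Slc30a1.

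Per kb of exon the order of levels in WT was Mt2 (1121 CPM per kb), Mt1 (485), Slc39a1 (114), Slc39a8 (21.0), Slc39a14 (17.4) and Slc39a10 (9.67). These were followed by Slc30a7, Slc30a1, Slc30a4 and Mtf1 at 6.35 to 5.54 CPM per kb, of which no neighbours in the order differed beyond their counting intervals. The gap between Mt2 and Mt1 rests on the merged exon length of Mt1, which covers its whole gene. In CPM the 2 genes stood at 659 and 604. The order of Slc39a8 and Slc39a14 in WT also rests on exon length, since in CPM they stood at 161 and 183. In P2Y4 KO PAT Slc39a8 (4.56 CPM per kb) and Slc39a10 (4.03) stood last, and Slc39a14 (21.3) and Slc30a1 (7.81) took the places after Slc39a1 (119). The counting intervals of Slc39a8 and of its neighbours Slc30a4 and Slc39a10 overlapped there.

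Taking the interval of each gene by itself, 4 members lay wholly below a ratio of 1 (Mt1, Mt2, Slc39a8 and Slc39a10), beside 23.5% of all genes, and 3 lay wholly above 1 (Slc39a1, Slc39a14 and Slc30a1), beside 25.2% of all genes. These intervals are narrow because the genes are abundant, all 10 being above the median WT level of 17.4 CPM. A small ratio with a narrow interval compares these pools only. The lower end of the interval of Slc39a1 was 1.00006, so its place among the 3 depends on the scaling. One scaling that was tried multiplied every ratio by 0.998. The side of 1 on which a ratio lay also depended on the scaling for Mt1, Mtf1, Slc30a4 and Slc30a7, whose ratios became 1.02, 1.08, 1.01 and 1.07 when both libraries were scaled to the median of 86 ribosomal protein genes.

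Metallothioneins and Slc39a14 are known as targets of glucocorticoids and of interleukin-6, and the lists of these responses are given beside them. Of 10 glucocorticoid receptor and target genes, 4 were lower and 0 higher, beside 4.4% and 8.75% of all genes, at a median log2 ratio of -0.52. The lower genes were the clock gene Per1 (0.360), Tsc22d3 (0.415), which encodes the glucocorticoid-induced protein GILZ, Klf9 (0.428) and Fkbp5 (0.450), which encodes a chaperone of the receptor. Fkbp5 had 3803 reads in the WT pool and 1643 reads in the KO pool. With the ribosomal scaling 3 of the 10 were lower, beside 531 of all 18474 genes, the ratio of Fkbp5 being 0.516. Of 10 genes of the interleukin-6 and STAT3 response none passed the threshold, which 13.1% of all genes did (median log2 ratio -0.17). The ratios ran from 0.761 for Lcn2 to 1.48 for Lif. Of 10 genes of the NF-kB response, which is known to include Slc39a8, none passed either (median log2 ratio 0.18), with Nfkbia at 0.910 and Il1b at 1.91, which the ribosomal scaling moved to 2.19 and past the threshold. The relation of these lists to the zinc genes was not tested.

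Genes that handle other metals were mostly within the threshold. Of 18 genes of iron handling 1 was higher and 0 lower, beside 8.75% and 4.4% of all genes, at a median log2 ratio of 0.22. This was Hamp, which encodes the iron hormone hepcidin and is also made in heart. It had 1 read in the WT pool and 49 reads in the KO pool (ratio 33.0, 8.74 to 2057). The cardiomyocyte markers were all higher as well, and their part in the value of Hamp was not tested. Steap4 (1.94), Hfe (1.88) and Steap3 (1.79) lay just under the threshold. With the ribosomal scaling 4 iron genes were higher, beside 2154 of all 18474 genes. The ferritin genes Fth1 and Ftl1 had ratios of 1.12 and 1.10. Of 8 copper genes past the CPM filter none was called, beside 13.1% of all genes (median log2 ratio 0.26), with the importer Slc31a1 at 1.25. Among 5 listed genes of manganese transport and use, Slc39a8 was the only one called, beside Slc39a14, Slc11a2 (1.02), Atp2c1 (0.968) and the mitochondrial superoxide dismutase gene Sod2 (1.41). S100a8 and S100a9, which form calprotectin, the zinc-binding protein of neutrophils, had ratios of 0.839 and 0.953.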

How the data were processed

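Each genotype, WT and P2Y4 KO, gave 1 PAT library, for which RNA from 3 mice was combined. The authors used a stranded mRNA kit and, by the study's methods and the submitters' processing notes, Trimmomatic, STAR and HTSeq with GRCm38.p4 and the annotation of Ensembl release 87; the sources used here give neither tool versions nor the strand setting. The signal per gene that the authors deposited has the form of reads scaled to 20000000 per library and rounded up. The deposited ratios and the table of regulated genes were not used. Steps between values gave whole reads for 99.9% of the WT and 99.8% of the P2Y4 KO values with no tolerance, checked on simulated data. No gene is listed with a WT value under 2.

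CPM was the deposited value divided by 20. A gene was called where either library exceeded 0.5 CPM and the ratio was at least 2 or at most 0.5, the study's threshold, with no pseudocount. No count model was fitted. Intervals are exact 95% Clopper-Pearson intervals given both libraries' reads (scipy 1.17.1, Python 3.11.15). Exon lengths, which merge the exons of all annotated transcripts of a gene, and coordinates are from GENCODE M21 (GRCm38), promoters from RefSeq (GRCm38.p6). The members and the 22 gene lists were chosen with earlier results of these data known. Named were all 10 members, the other listed members of the metallothionein, ZIP and ZnT families, genes next to Slc39a8, up to 4 genes past the threshold in each other list, and the extreme genes of marker lists; other list genes named were chosen after their values were seen. Other scalings, filters, call rules and an added 0.5 CPM were tried.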

Additional observations from a re-analysis of the deposited data

How the results depend on the processing

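Over 11 alternative settings and 140 recomputed values, 124 stayed within the counting interval (ratios) or within 1.5 times the count, 16 moved and none reversed a call. Slc39a8 and Slc39a10 remained lower under each scaling. Scaling both libraries to the median of 86 ribosomal protein genes shifts every log2 ratio by 0.20, and the ratio of Slc39a8 was then 0.249 and that of Slc39a10 0.478, and 0 ZnT genes were lower. The median log2 ratio of the 13 ZIP genes was then 0.04 in place of -0.16, that of the 7 ZnT genes 0.09 in place of -0.10. On that scale 80.2% of the called genes over the whole table were higher in place of 66.6%. The 1 lower ZnT gene, Slc30a2, also gave 0 with 0.5 CPM added to both libraries and with the whole interval required to pass. The 1 lower metallothionein, Mt4, gave 0 with CPM above 0.5 required in both libraries and with the whole interval required to pass. At a threshold of 1.5, 1 ZIP gene, Slc39a2, was higher in place of 0. The cause of these changes was not tested. Recovered reads in place of deposited values, an alternative chosen after seeing the data, moved no ratio of a member outside its interval. No paired analysis was possible because each genotype has 1 library, and for the same reason no replicate could be left out.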
